A study of Homo sapiens with 16 samples.

Results

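The 8 E2F transcription factor genes, E2F1 to E2F8, and the pocket protein genes RB1 and RBL1 were described here by the H3K4me1 and H3K27me3 regions that covered them in BE2C cells. These 10 genes were taken by name out of 19785 protein-coding genes. E2F proteins bind DNA at the promoters of genes for DNA replication and cell division. E2F1, E2F2 and E2F3 are known mainly as activators, E2F4 and E2F5 as repressors that act with pocket proteins, E2F6 as a repressor that does not bind pocket proteins, and E2F7 and E2F8 as atypical repressors that bind DNA without a dimerisation partner. The pocket proteins, RB (from RB1) and p107 (from RBL1), hold E2F factors inactive until kinases driven by cyclins phosphorylate them. H3K4me1 is a mark of enhancers and of the flanks of promoters, and H3K27me3 is the Polycomb mark that KDM6B removes.

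The study asked how loss of KDM6B activity alters these marks in BE2C, a human MYCN-amplified neuroblastoma line. All 4 treatments were given to this same line for 72 h. One pair of groups received the control siRNA siCtrl or the siRNA siKDM6B33 against KDM6B, and the other received 0.1% DMSO or 2.5 µM GSK-J4, a compound that inhibits the KDM6 demethylases. CUT&Tag, in which an antibody guides a transposase to the mark, was done for both marks with 2 replicates for each treatment, which gave 16 libraries in 8 groups. All libraries came from 1 cell line and the knockdown from 1 siRNA, and GSK-J4 is not selective for KDM6B alone.

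Each library had a list of broad regions, called islands, and a list of narrow peaks. The gene window of a gene was its body with 5 kb on each side, and its start window was 1 kb on each side of its annotated starts. The value given throughout is the percent of a window that islands covered in a library. The groups of a comparison were called apart where both treated libraries lay above, or both below, the 2 controls, and an exact two-sided permutation test on 2 against 2 libraries cannot go under p = 0.333. Depth was read as the genome background of each library, an expected number of tags on a base, and enriched regions were not taken out. It was the lowest value solved from the commonest narrow peak values. It was 0.0849 and 0.0902 for H3K4me1 in siCtrl against 0.105 and 0.107 in siKDM6B33, and 0.0395 and 0.0401 for H3K27me3 in siCtrl against 0.0529 and 0.0539. In the compound experiment it was 0.0483 to 0.0569 for H3K4me1. For H3K27me3 it was 0.0298 and 0.0338 in DMSO against 0.0507 and 0.0371 in GSKJ4. The siKDM6B33 libraries of both marks and the GSKJ4 libraries of H3K27me3 were thus deeper than their controls, with GSKJ4 replicate 1 the deepest of its 4, and the part of depth in the results was not tested. GSKJ4 replicate 1 of H3K27me3 stood apart with 16676 islands, where the 3 other H3K27me3 libraries of its experiment had 7175 to 8006. Of the H3K27me3 island length, 50.1% to 66.9% lay inside H3K4me1 islands of the same treatment and replicate in the compound experiment, but 8.89% to 11.4% in the knockdown experiment. H3K4me1 islands reached the windows of 9 of 9 adrenergic neuroblastoma markers in all 8 H3K4me1 libraries and those of 0 or 1 of 6 markers of other lineages. KDM6B itself had 67.4% and 70.0% of its window under H3K4me1 islands in siCtrl and 88.7% in both siKDM6B33 libraries, which is a chromatin reading and does not measure its RNA.

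The 200 bases before the outermost start of each gene were read from GRCh37, the build of the deposited lists, because islands at these starts carried most of what follows. The E2F site was searched as TTTCCCGC, TTTCGCGC, TTTGCCGC or TTTGGCGC on both strands, and matches are in capitals. Positions count back from the start, with -1 for the base before it. A match was present in 6 of the 10 genes (E2F1, E2F2, E2F3, E2F5, RB1 and RBL1), and in 2.81% of the 19785 genes. A match is only a description of the letters. Genes that lacked H3K4me1 islands at the start in siCtrl and had them in siKDM6B33 are shown first, apart from E2F5, which belongs to this set and whose bases and match are not shown.
E2F3, chr6:20401910-20402109, plus strand: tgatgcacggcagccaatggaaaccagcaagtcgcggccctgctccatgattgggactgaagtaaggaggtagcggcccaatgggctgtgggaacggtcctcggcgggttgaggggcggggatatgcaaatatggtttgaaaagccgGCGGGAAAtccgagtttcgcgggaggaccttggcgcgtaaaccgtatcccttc
E2F6, chr2:11606304-11606503, minus strand: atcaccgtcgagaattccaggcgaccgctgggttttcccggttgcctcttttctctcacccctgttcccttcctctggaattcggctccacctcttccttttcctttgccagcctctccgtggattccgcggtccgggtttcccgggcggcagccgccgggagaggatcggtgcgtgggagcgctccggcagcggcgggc
RB1, chr13:48877680-48877879, plus strand: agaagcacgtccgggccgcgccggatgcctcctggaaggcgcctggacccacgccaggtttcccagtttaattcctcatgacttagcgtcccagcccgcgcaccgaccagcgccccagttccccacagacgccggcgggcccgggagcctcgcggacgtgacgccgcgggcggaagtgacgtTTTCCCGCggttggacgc
Genes that had H3K4me1 islands at the start in every control library are shown next.
E2F1, chr20:32274192-32274391, minus strand: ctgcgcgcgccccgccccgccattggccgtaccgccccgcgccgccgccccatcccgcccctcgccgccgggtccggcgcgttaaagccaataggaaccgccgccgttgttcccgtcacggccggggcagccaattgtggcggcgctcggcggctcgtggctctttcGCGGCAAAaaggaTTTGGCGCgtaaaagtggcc
E2F2, chr1:23857726-23857925, minus strand: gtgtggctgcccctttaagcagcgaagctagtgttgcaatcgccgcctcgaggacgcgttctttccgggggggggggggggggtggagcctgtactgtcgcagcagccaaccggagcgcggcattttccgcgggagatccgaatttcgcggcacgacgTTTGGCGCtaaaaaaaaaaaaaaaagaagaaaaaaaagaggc
E2F4, chr16:67225858-67226057, plus strand: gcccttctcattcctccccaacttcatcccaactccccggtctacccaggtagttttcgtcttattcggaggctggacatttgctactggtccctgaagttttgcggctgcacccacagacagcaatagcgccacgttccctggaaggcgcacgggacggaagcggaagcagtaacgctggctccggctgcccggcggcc
RBL1 had such islands in the knockdown experiment alone, and E2F8 had none in any library.
RBL1, chr20:35724401-35724600, minus strand: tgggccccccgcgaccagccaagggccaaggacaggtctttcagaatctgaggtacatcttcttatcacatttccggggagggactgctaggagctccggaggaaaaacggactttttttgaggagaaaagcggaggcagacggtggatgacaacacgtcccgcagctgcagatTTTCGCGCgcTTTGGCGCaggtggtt
E2F8, chr11:19263168-19263367, minus strand: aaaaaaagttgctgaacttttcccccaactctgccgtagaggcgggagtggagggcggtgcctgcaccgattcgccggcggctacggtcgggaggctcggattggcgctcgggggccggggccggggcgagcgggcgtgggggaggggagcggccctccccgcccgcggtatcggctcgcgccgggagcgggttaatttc

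In these lines E2F1 held TTTGCCGC on the opposite strand from -33 to -26 and TTTGGCGC from -20 to -13. RBL1 held TTTCGCGC from -26 to -19 and TTTGGCGC from -16 to -9. E2F2 held TTTGGCGC from -42 to -35, E2F3 held TTTCCCGC on the opposite strand from -53 to -46, and RB1 held TTTCCCGC from -18 to -11. Within 1 kb of the start, the GC content ran from 54.6% at E2F7 to 65.7% at E2F1, beside a median of 55.5% over all genes. E2F7 and E2F8, which had no island in any library, had GC contents of 54.6% and 64.5%, the lowest of the 10 and a value near the highest.

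H3K4me1 after KDM6B knockdown was the comparison in which most members had groups apart. At the start windows, E2F2, E2F3, E2F5, E2F6 and RB1 were higher in both siKDM6B33 libraries than in both siCtrl libraries and 0 members were lower. This is 5 of 10 members, beside 40.9% of all genes higher and 1.93% lower, so the share of the members was close to that of the genome. The median difference was 12.4 percentage points over the members and 2.44 over all genes. An island touched a start in both replicates at 4 members in siCtrl and at 8 members in siKDM6B33, beside 24.2% and 57.6% of all genes.

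**Figure D1:**
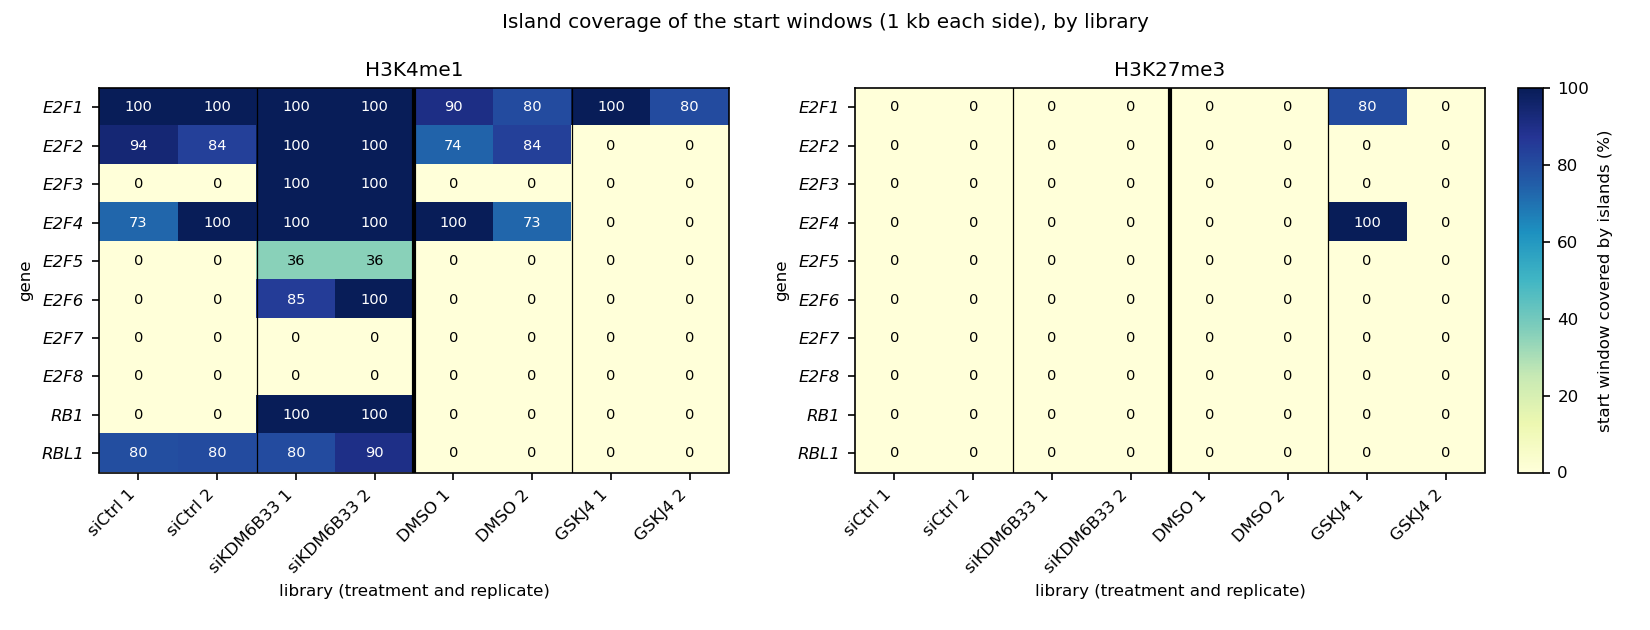
Percent of each start window (1 kb each side of the annotated starts) covered by islands, with genes in rows, libraries in columns, and H3K4me1 on the left and H3K27me3 on the right. E2F3, E2F6 and RB1 pass from 0 in siCtrl to 85.0 to 100 in siKDM6B33, E2F2 and E2F4 pass to 0 in GSKJ4, and H3K27me3 reaches starts only in GSKJ4 replicate 1.

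Among the activators, E2F3 (chromosome 6 from 20402110 to 20493945, plus strand) had no H3K4me1 island in its window in the siCtrl, DMSO or GSKJ4 libraries. In siKDM6B33, islands covered 13.0% and 10.6% of the gene window and 100% of the start window in both replicates. The island of replicate 1 ran from -2109 to 11090 bp, counted from the outermost start and into the gene, and replicate 2 had islands from -1509 to 3090 bp and from 3891 to 10090 bp. Both annotated starts of E2F3 lay inside them. Without siKDM6B33 the nearest H3K4me1 island was 304 to 563 kb from a start of E2F3.

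E2F3 was not bare of H3K4me1 in the controls at the level of narrow peaks. The strongest narrow peak at its starts had a fold enrichment over the local background of 4.24 and 4.30 in siCtrl, 3.63 and 2.79 in DMSO, and 11.1 in both siKDM6B33 libraries, with no peak in GSKJ4. The number of narrow peaks there was 2 in both siCtrl libraries and 6 in both siKDM6B33 libraries. Controls thus held weaker narrow peaks without an island.

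E2F2 (chromosome 1 from 23832930 to 23857725, minus strand) had an H3K4me1 island across its start in all siCtrl, siKDM6B33 and DMSO libraries. Coverage of the start window was 93.8% and 83.8% in siCtrl and 100% in both siKDM6B33 libraries. Coverage of the whole gene window went the other way, with 20.1% and 15.5% in siCtrl and 14.4% in both siKDM6B33 libraries. The island began at -875 and -675 bp in siCtrl and at -1075 and -1475 bp in siKDM6B33, and it ended 6124 and 4724 bp inside the gene in siCtrl and 3924 and 3524 bp in siKDM6B33. It lay farther upstream after knockdown at both ends. The gene window difference was -3.45 percentage points, which did not pass the test (limma, SE 1.71, adjusted p = 0.136). It passed without the flanks (-6.86, limma, adjusted p = 0.0390), and with narrow peaks in place of islands the difference was 0.11 (limma, adjusted p = 0.326). Without siCtrl replicate 2 the difference was -5.75. Without siCtrl replicate 1 it was smaller, at 15.5% in siCtrl against 14.4% in siKDM6B33.

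E2F1 (chromosome 20 from 32263283 to 32274191, minus strand) was the most covered activator. Its start window was 100% covered in the 4 libraries of the knockdown experiment. The gene window had 81.3% and 75.2% in siCtrl and 88.6% and 63.7% in siKDM6B33, and these groups overlapped (difference -2.11 percentage points, limma SE 9.47, adjusted p = 0.868). The window also holds NECAB3, and the longer islands of E2F1 contained a start of that gene, so this coverage does not belong to E2F1 alone.

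**Figure D2:**
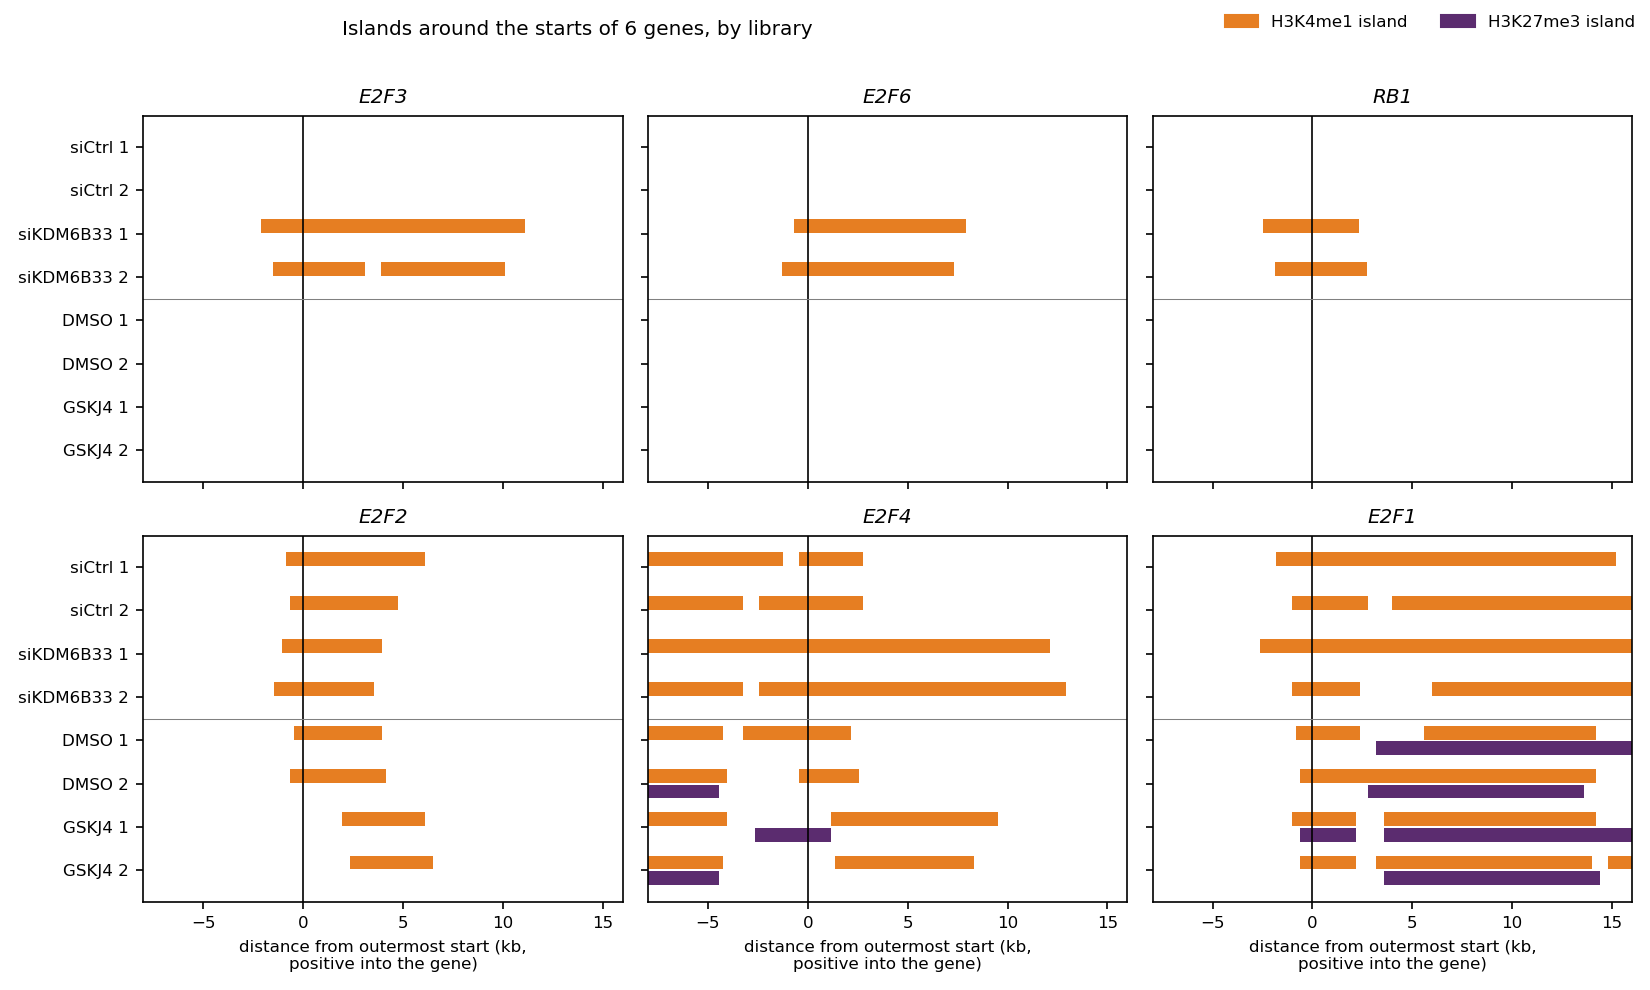
Islands of H3K4me1 (orange) and H3K27me3 (purple) around the outermost start of 6 genes, with the distance from the start in kb on the x axis, positive into the gene, and 1 row for each library. Islands appear at the starts of E2F3, E2F6 and RB1 only in siKDM6B33, the E2F2 and E2F4 islands that cross the start in DMSO begin downstream of it in GSKJ4, and H3K27me3 lies over the body of E2F1 only in the compound experiment.

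Among the repressors, E2F4 (chromosome 16 from 67226058 to 67232821, plus strand) had the largest gene window difference of the members. H3K4me1 islands covered 41.4% of its gene window in both siCtrl libraries, and 100% and 95.2% in the siKDM6B33 libraries. The difference was 56.2 percentage points (limma, SE 5.56, adjusted p = 0.000620). The strongest narrow peak at its start had a fold enrichment of 6.51 and 5.92 in siCtrl and of 17.2 and 18.1 in siKDM6B33, the highest of any member. The window also holds EXOC3L1 and ELMO3, and the siKDM6B33 islands, 15400 and 31000 bp wide across the start of E2F4, contained starts of both.

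E2F6 (chromosome 2 from 11584501 to 11606303, minus strand) had no H3K4me1 island in its window in siCtrl, DMSO or GSKJ4 and a single island of 8600 bp in both siKDM6B33 libraries. This island covered 27.04% of the gene window in both, and 85.0% and 100% of the start window. It ran from -697 to 7902 bp in replicate 1 and from -1297 to 7302 bp in replicate 2. The narrow peak at the start had a fold of 5.48 and 2.77 in siCtrl and 10.2 and 9.004 in siKDM6B33. No other protein-coding gene lies in this window.

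E2F5 (chromosome 8 from 86089389 to 86129387, plus strand) had 0 in both siCtrl libraries and 13.6% and 10.0% of its gene window in siKDM6B33. Islands covered 35.8% of its start window in both siKDM6B33 libraries, at the upstream starts and not at the start farther into the gene. The other island in the window lay 41.0 to 44.6 kb downstream and contained a start of RBIS, the neighbouring gene. E2F7 and E2F8 had no H3K4me1 island in their windows in any of the 8 libraries. The nearest island to a start was 185 to 980 kb away for E2F7 and 102 to 199.4 kb for E2F8. E2F7 and E2F8 did have narrow peaks at their starts in some libraries, with folds of at most 3.79 for E2F7 and a highest fold of 7.01 in siKDM6B33 replicate 1 for E2F8, beside no peak in siKDM6B33 replicate 2.

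**Figure D3:**
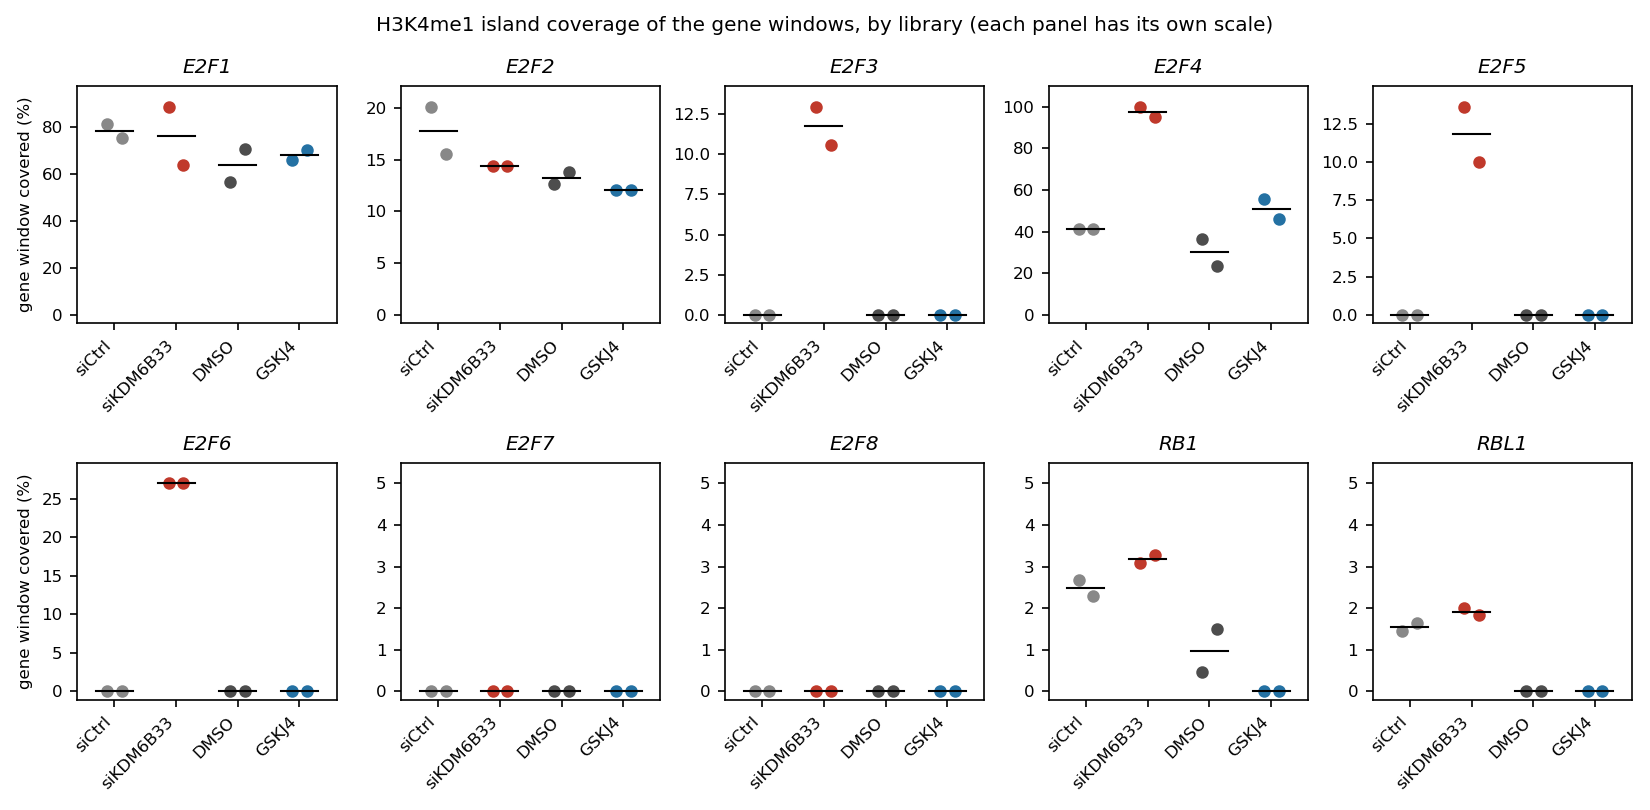
Percent of each gene window (body with 5 kb each side) covered by H3K4me1 islands, in 1 panel for each gene with its own y axis. Points are libraries and bars are means of 2. Coverage of E2F3, E2F5 and E2F6 is above 0 only in siKDM6B33, E2F4 reaches 95.2 to 100 there, and E2F7 and E2F8 stay at 0.

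RB1 and RBL1 are long genes in which the marked part was small. RB1 (chromosome 13 from 48877880 to 49173572, plus strand) had H3K4me1 islands over 2.68% and 2.29% of its window in siCtrl and 3.08% and 3.27% in siKDM6B33. The test was not passed (difference 0.69 percentage points, limma SE 0.37, adjusted p = 0.162). It was passed without the flanks (1.09, limma, adjusted p = 0.00994), and with narrow peaks the difference was -0.00998 (limma, adjusted p = 0.891). At the start, islands of 4800 and 4600 bp were present in the siKDM6B33 libraries and covered 100% of the start window, where siCtrl had neither an island nor a narrow peak. The siCtrl coverage lay 187 to 300.1 kb from the start, in part at a start of RCBTB2. The flank island 297 kb from the start was present in both siCtrl libraries and in neither siKDM6B33 library, while the islands at the start were present in siKDM6B33 alone.

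RBL1 (chromosome 20 from 35624752 to 35724400, minus strand) had an H3K4me1 island at its start in all 4 libraries of the knockdown experiment. The island was 1600 and 1800 bp wide in siCtrl and 2200 and 2000 bp wide in siKDM6B33. It covered 1.46% and 1.64% of the gene window in siCtrl and 2.01% and 1.82% in siKDM6B33. The groups did not overlap, and the difference of 0.36 percentage points passed the test by a small margin (limma, SE 0.10, adjusted p = 0.0256). This call was lost with the covered length set equal within each mark and experiment (limma, adjusted p = 0.128). It was lost too without the flanks (limma, adjusted p = 0.150) and with the replicate number as a block (limma, adjusted p = 0.104). Leaving out siCtrl replicate 1, siKDM6B33 replicate 1 or siKDM6B33 replicate 2 also lost it.

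Over the gene windows, limma tested 8 of the 10 members for H3K4me1, since E2F7 and E2F8 had no island. After knockdown 5 were higher and 0 lower at an adjusted p under 0.05, beside 55.2% and 8.12% of 13468 genes tested. These were E2F3 (difference 11.8 percentage points, adjusted p = 0.000116), E2F4, E2F5 (11.8, adjusted p = 0.000581), E2F6 (27.04, adjusted p = 1.05e-06) and RBL1, all from limma. E2F3, E2F5 and E2F6 entered the test only through the 2 siKDM6B33 libraries, so they had to differ and their adjusted p values carry little weight. Of the 5 other members tested 2 were higher, beside 38.2% of the genes tested that were not covered in the siKDM6B33 libraries alone. That set takes in genes with no island in siKDM6B33, which could not be higher. Without either siKDM6B33 library E2F3, E2F5 and E2F6 could no longer be tested, and E2F4 alone kept its call. By the rule of groups apart, 6 members were higher (E2F3, E2F4, E2F5, E2F6, RB1 and RBL1) and 1 was lower (E2F2), beside 46.2% and 9.65% of all genes. The siKDM6B33 libraries covered 114 and 115 Mb with H3K4me1 islands and the siCtrl libraries 98.6 and 103 Mb.

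**Figure D4:**
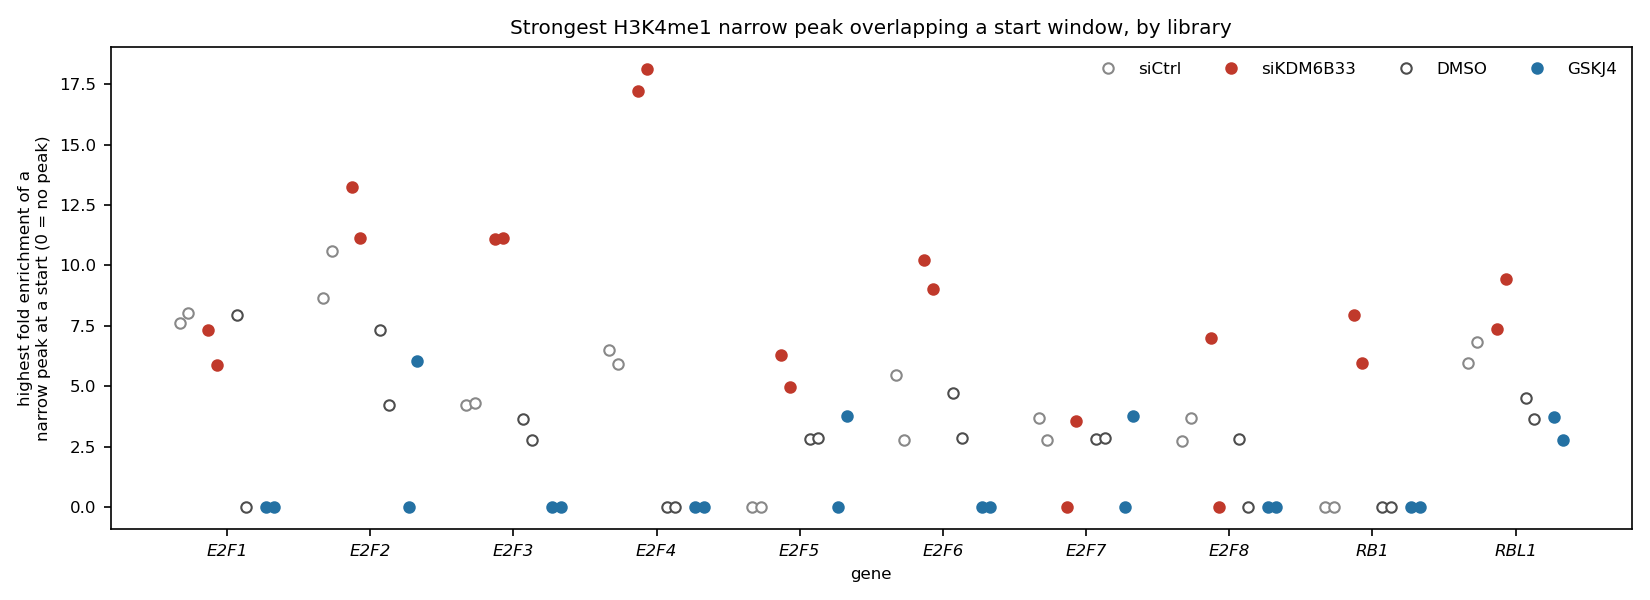
Highest fold enrichment over the local background of an H3K4me1 narrow peak that overlaps a start window, for each gene on the x axis and each library as a point, with open points for controls, filled points for treated libraries and 0 for no peak. The siKDM6B33 points of E2F2, E2F3, E2F4, E2F5, E2F6, RB1 and RBL1 lie above both siCtrl points, with E2F4 highest at 17.2 and 18.1. The GSKJ4 points of E2F1, E2F3, E2F4, E2F6, E2F8 and RB1 are at 0. Both DMSO points of E2F4 and RB1 are at 0 as well, as is DMSO replicate 2 of E2F1 and E2F8.

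The narrow peaks at the starts gave another count than the islands, since several starts held peaks without an island. A narrow peak of H3K4me1 overlapped the start window of 8 members in each siCtrl library and of 9 in each siKDM6B33 library, beside 47.6% to 48.3% and 64.9% to 65.2% of all genes. The 9 were not the same, since E2F7 had a peak in siKDM6B33 replicate 2 alone and E2F8 in replicate 1 alone, and 8 members had one in both replicates. The members together had 15 and 13 peaks at their starts in siCtrl and 27 and 32 in siKDM6B33. The highest fold was not above both siCtrl values at E2F1, with 7.61 and 8.05 in siCtrl and 7.33 and 5.88 in siKDM6B33, at E2F7, with 3.67 and 2.77 against 0 and 3.58, or in both siKDM6B33 libraries at E2F8.

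With GSK-J4, the members with groups apart at the start windows were E2F2 and E2F4, both without H3K4me1 coverage there in GSKJ4. E2F2 had 73.8% and 83.8% of its start window covered in DMSO and 0 in both GSKJ4 libraries. E2F4 had 100% and 72.9% in DMSO and 0 in both GSKJ4 libraries. Both were lower with groups apart and 0 members were higher, beside 5.02% of all genes lower and 2.03% higher.

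The islands of these genes were still present with GSK-J4 but began inside the gene. At E2F2, the island ran from -475 to 3924 bp in DMSO replicate 1 and from -675 to 4124 bp in replicate 2, and from 1925 to 6124 bp and from 2325 to 6524 bp in GSKJ4. At E2F4, the island across the start ended 2142 and 2542 bp inside the gene in DMSO, and in GSKJ4 an island ran from 1143 to 9542 bp and from 1343 to 8342 bp and contained a start of ELMO3. The gene window of E2F4 was therefore higher with GSK-J4, with 36.6% and 23.5% in DMSO and 55.7% and 46.2% in GSKJ4 (difference 20.9 percentage points, limma SE 5.56, adjusted p = 0.211). Without the flanks the difference was 47.0 percentage points and passed the test (limma, adjusted p = 0.00215). That of E2F2 was lower, with 12.6% and 13.8% in DMSO and 12.1% in both GSKJ4 libraries (difference -1.15, limma SE 1.71, adjusted p = 1.00), but the difference was 0.71 without the flanks and 0.10 with narrow peaks in place of islands.

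Of the other members, E2F1 kept its start island in all 4 libraries of the compound experiment, with 90.5% and 80.5% of the start window in DMSO and 100% and 80.5% in GSKJ4. Its gene window had 56.4% and 70.8% in DMSO and 66.0% and 70.4% in GSKJ4, which overlapped. RB1 had 0.46% and 1.505% of its window covered in DMSO, at 228 kb from the start in both and at 297 kb in 1 of them, and 0 in GSKJ4 (difference -0.98 percentage points, limma SE 0.37, adjusted p = 0.408). E2F3, E2F5, E2F6, E2F7, E2F8 and RBL1 had no H3K4me1 island in their windows in any library of the compound experiment. RBL1, whose start was covered in all 4 libraries of the knockdown experiment, thus differed in islands between siCtrl and DMSO. These controls came from separate experiments of unequal depth. Narrow peaks were present at the RBL1 start in both, with highest folds of 5.95 and 6.84 in siCtrl and 4.52 and 3.64 in DMSO. In GSKJ4 these folds were 3.71 and 2.78.

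By the gene window, 1 member was higher (E2F4) and 2 were lower (E2F2 and RB1) with GSK-J4 by the rule of groups apart, beside 10.3% and 7.96% of all genes. limma called 0 of the 8 members tested in either direction at an adjusted p under 0.05, beside 1.17% higher and 0.453% lower, and 2 members, E2F4 and RB1, had an unadjusted p under 0.05 in limma. E2F3, E2F5, E2F6 and RBL1 were at 0 in these libraries and could not have been called. In limma's test of the knockdown difference against the GSK-J4 difference, 5 members had the higher value after knockdown and 0 the lower, beside 47.6% and 7.81% of genes tested, and 3 of the 5 were E2F3, E2F5 and E2F6, which had to differ. An island touched a start in both replicates at 3 members in DMSO (E2F1, E2F2 and E2F4) and at 1 in GSKJ4 (E2F1), beside 20.9% and 17.5% of all genes. Narrow peaks lay at the starts of 8 and 6 members in DMSO, beside 38.4% and 33.6% of all genes. In GSKJ4 they lay at the starts of 1 and 4 members, beside 32.3% and 33.4%. At the start window of E2F2 the highest fold was 7.34 and 4.22 in DMSO and 0 and 6.03 in GSKJ4, which overlapped. The start window of E2F4 held no H3K4me1 narrow peak in any library of this experiment, DMSO included, so narrow peaks could not show a lower value there.

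H3K27me3 islands reached the gene windows of 1 member in the knockdown experiment and 3 in the compound experiment, counting any of 4 libraries. Over all genes these shares were 28.2% and 38.5%. Of the 10 members, 7 (E2F2, E2F3, E2F6, E2F7, E2F8, RB1 and RBL1) had no H3K27me3 island in their windows in any of the 8 libraries, and no member had an island at a start in both replicates of any group, beside 14.2% to 17.3% of all genes. Narrow peaks of H3K27me3 overlapped the start windows of 4 and 2 members in siCtrl, 3 and 2 in siKDM6B33, 0 and 3 in DMSO, and 5 and 3 in GSKJ4, beside 23.01% to 34.6% of all genes. In the knockdown experiment the only member reached by an island was E2F5. Islands covered 1.60% of its window in both siCtrl libraries and 3.20% and 2.40% in siKDM6B33 (difference 1.20 percentage points, limma SE 0.59, adjusted p = 0.425). They lay 42.8 to 44.4 kb from the first start, around a start of RBIS, and not at E2F5 itself.

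After knockdown, 1 member was thus higher in H3K27me3 over the gene window and 0 were lower by the rule of groups apart, beside 10.0% and 3.22% of all genes, and 0 of 3 members tested by limma were called in either direction, beside 8.97% and 1.34%. Of these 3, E2F1 and E2F4 had no H3K27me3 island in the 4 libraries of this experiment, so only E2F5 could have been called. At the start windows 0 members were apart, beside 3.20% higher and 1.25% lower. Covered length was also set equal within each mark and experiment. The split of all genes called by limma then turned from 663 higher and 99 lower to 124 higher and 624 lower. E2F8 had its nearest H3K27me3 island 101 to 102 kb from a start in the 4 libraries of this experiment, and E2F3 had narrow peaks of H3K27me3 at its starts in all 4, with folds of 5.32 and 4.38 in siCtrl and 4.38 and 4.99 in siKDM6B33.

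In the compound experiment H3K27me3 islands lay in the windows of E2F1, E2F4 and E2F5, and E2F1 had the most. Islands covered 60.8% and 51.7% of its window in DMSO and 72.3% and 51.7% in GSKJ4 (difference 5.74 percentage points, limma SE 7.36, adjusted p = 0.894), and the groups overlapped. Without GSKJ4 replicate 1 the difference was -4.59 percentage points. These islands lay from 2791 bp inside the gene onwards and held a start of NECAB3, while the start of E2F1 was covered by an island only in GSKJ4 replicate 1, over 80.5% of its window. Within the E2F1 window, 67.6% to 100% of the H3K27me3 length lay inside H3K4me1 islands of the same treatment and replicate. The same window had 0 H3K27me3 in the 4 libraries of the knockdown experiment. The share of all H3K27me3 island length inside H3K4me1 islands was lower than this in each of the same libraries, at 50.1% to 66.9%. Of the 9 adrenergic neuroblastoma markers, 6 and 5 had an H3K27me3 island in their windows in DMSO and 9 and 6 in GSKJ4, but 0 in both siCtrl libraries and 2 and 1 in siKDM6B33. The start window of KDM6B was covered by H3K27me3 islands at 98.4% to 100% in the compound libraries and 0 in the knockdown experiment. H3K27me3 at these markers and at KDM6B thus differed between the experiments. Over all genes, islands reached 28.2% of gene windows in the knockdown experiment and 38.5% in the compound experiment, counting any of 4 libraries. LIN52, from a list below, had 57.1% and 40.0% of its start window under H3K27me3 in both siCtrl and siKDM6B33, and 0 in DMSO. In GSKJ4 it had 57.1% and 0. The part of the experiment in the E2F1 values was not tested.

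E2F5 had 1.60% in GSKJ4 replicate 1 and 0 in the 3 other libraries. E2F4 had H3K27me3 over 0 and 3.24% of its window in DMSO and over 22.7% and 3.24% in GSKJ4 (difference 11.3 percentage points, limma SE 6.07, adjusted p = 0.567). The 22.7% came from GSKJ4 replicate 1, in which an island of 3800 bp covered 100% of the start window, in the stretch where the H3K4me1 island was missing in GSKJ4. That library stood apart in its number of islands and its depth. With GSKJ4 replicate 1 as the sole treated library the difference was 21.0 percentage points (limma, adjusted p = 0.00787), and with replicate 2 alone E2F4 was not called. With GSK-J4, 0 members were apart in either direction over the gene windows, beside 5.50% higher and 4.03% lower, and 0 over the start windows, beside 1.32% and 1.34%. limma called 0 of 3 members tested, beside 2.22% higher and 0.406% lower, with 0 members at an unadjusted p under 0.05 in either experiment.

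Partners and regulators of these genes were described from lists fixed beside the members. The dimerisation partners TFDP1, TFDP2 and TFDP3 and the pocket protein gene RBL2 had 3 of 3 genes tested higher in H3K4me1 after knockdown by limma and 0 lower, beside 55.2% and 8.12% of all genes tested. RBL2 and TFDP2 were covered in the 2 siKDM6B33 libraries alone, so they had to differ once tested. TFDP1, the main E2F partner, had 0 of its start window covered in siCtrl and 83.4% and 100% in siKDM6B33. RBL2, which encodes p130, had 0 in siCtrl and 89.1% and 69.1% in siKDM6B33. TFDP2 had 0 against 22.7% and 17.7%, and TFDP3 had no island in any library. With GSK-J4 none of the 4 was apart in either mark.

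Among the 8 cyclin and kinase genes that act on the pocket proteins, 3 were higher in H3K4me1 gene window coverage after knockdown by limma and 0 lower, beside 55.2% and 8.12% of all genes tested. CDK2 had 11.2% and 6.25% in siCtrl and 38.7% and 42.5% in siKDM6B33 (adjusted p = 0.00121, limma). CDK4 had 37.2% and 36.1% against 61.2% and 66.7% (adjusted p = 0.0131, limma). For H3K27me3, CDK4 had 12.03% and 13.1% in siCtrl and 0 in both siKDM6B33 libraries, which did not pass the test (adjusted p = 0.217, limma). CCND2, which encodes cyclin D2, had 0 against 15.8% and 10.5% (adjusted p = 0.00809, limma) and carried H3K27me3 over 79.6% to 96.7% of its window in all 8 libraries. In the compound experiment its H3K4me1 coverage was 20.2% and 14.9% in DMSO and 19.3% and 17.1% in GSKJ4, so siCtrl alone had none. With GSK-J4 limma called 0 of 8 genes tested for H3K4me1, beside 1.17% higher and 0.453% lower, with 1 gene, CCNE1, at an unadjusted p under 0.05. For H3K27me3 it called 0 of 4 tested, beside 2.22% and 0.406%, with 0 at an unadjusted p under 0.05. CCND1, which encodes cyclin D1, had 85.4% and 72.9% H3K4me1 in DMSO and 66.0% and 66.9% in GSKJ4 (adjusted p = 0.447, limma). At the start windows the H3K4me1 difference with GSK-J4 was 19.4 percentage points at CDK4 and -39.2 at CDK6, both with groups apart. Over all genes 2.03% were higher and 5.02% lower.

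Of the 6 genes for MuvB subunits and the associated MYBL2, 5 were higher and 1 was lower in H3K4me1 after knockdown by limma, beside 55.2% and 8.12% of all genes tested. LIN9, LIN54 and RBBP4 were among the 5 (the first pair named after their values were seen) and were covered in the 2 siKDM6B33 libraries alone, so they had to differ once tested. LIN37 had 40.8% and 28.5% in siCtrl and 93.0% and 75.2% in siKDM6B33 (adjusted p = 0.00388, limma). RBBP4 had 0 against 6.66% and 10.7%. MYBL2, itself a gene that E2F factors are known to switch on, was the gene that fell, from 11.9% and 13.0% to 4.26% and 7.62% (adjusted p = 0.00782, limma). Its start window was covered by 100% and 83.1% in DMSO and by 0 in both GSKJ4 libraries, as at E2F2 and E2F4. LIN52 had 47.1% and 57.1% of its start window in DMSO and 0 in GSKJ4. These 2 of the 6 genes were lower with groups apart at the start and 0 were higher, beside 5.02% and 2.03% of all genes. Over the gene windows neither passed the test with GSK-J4 (adjusted p = 0.247 for MYBL2 and 0.148 for LIN52, limma). Over the 3 lists, 11 of 17 genes tested were higher and 1 was lower by limma after knockdown. Of the 11, 5 were covered in the siKDM6B33 libraries alone, as were 3789 of the 13468 genes tested. Of the genes not covered in the siKDM6B33 libraries alone, 6 of 12 were higher in the lists and 38.2% over the genome.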

How the data were processed

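BE2C islands and narrow peaks were analysed from 16 CUT&Tag libraries, grouped by sample title. Reads had been mapped by the authors to hg19 (BWA), and uniquely placed proper pairs were retained after duplicates were taken out (Picard). The authors called islands with SICER in 200-bp windows, and the deposited island score (a sum over windows) was used only to rank islands. The authors called narrow peaks with MACS2, and the deposited fold enrichment (a ratio to local background), −log10 p and −log10 q describe each peak within its own library. Reads per region and the study's spike-in factors were not used here.

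Windows came from GENCODE 44 on GRCh37 (19785 protein-coding genes). Percent coverage was tested with limma 3.58.1 (lmFit, eBayes with trend) in R 4.3.3, over genes covered in at least 2 of the 8 libraries of a mark, 4 groups sharing 1 spread, with Benjamini-Hochberg adjustment at 0.05. On simulated data the share of false calls exceeded that level, so calls are approximate. The paper names 2 biological replicates. The labels do not state whether these were separate cultures, so p-values measure the spread between these libraries. Tags outside enriched regions were solved from fold and −log10 p. Other tools were Python 3.11.15, NumPy 2.4.6, pandas 2.3.3 and matplotlib 3.10.9.

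The members, gene lists and tests were chosen with earlier results of these data known. All 10 members were named, and per list and comparison at most 3 genes with groups apart and the largest difference, with LIN9 and LIN54 added after their values were seen. Alternatives were equal covered length within each mark and experiment, no flanks, islands of at least 2 kb, narrow peaks and a replicate block. Further ones were other filters and scales, and leaving out each replicate.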

Additional observations from a re-analysis of the deposited data

Results flagged for a closer look

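For 2 members, E2F4 and RB1, the H3K4me1 difference of the gene window after KDM6B knockdown and that with GSK-J4 differed, by limma's test of the difference between both differences. The same test called 47.6% of 13468 genes with the knockdown difference higher and 7.81% with it lower. Among genes not covered in the siKDM6B33 libraries alone, it called 2 of 5 members and 3874 of 9679 genes, in either direction. This gap was 35.3 percentage points for E2F4 (56.2 after knockdown and 20.9 with GSK-J4, SE 7.86, adjusted p = 0.0154, limma). For RB1 it was 1.67 points (0.69 after knockdown and -0.98 with GSK-J4, SE 0.52, adjusted p = 0.0445, limma), although neither difference passed alone (adjusted p = 0.162 and 0.408, limma) and that after knockdown was -0.00998 with narrow peaks. E2F6, E2F3 and E2F5 were called as well, with gaps of 27.04, 11.8 and 11.8 points. These 3 genes were covered in the 2 siKDM6B33 libraries alone and had to differ once tested, so their calls add nothing to the levels already given. The 2 experiments had separate controls and unequal depth, so the treatment and the experiment cannot be told apart here.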

How the results depend on the processing

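Depth and the number of replicates limit these values: regions come from lists, a window at 0 can hold signal below the caller's threshold, and 2 libraries against 2 cannot pass an exact test. Of 22 member differences, 6 were exactly 0 and have no direction. The other 16 gave 179 values under the alternatives, of which 150 kept their direction and side of the threshold, 4 became 0, 13 reversed, 7 were no longer called and 5 became called. The cause was not tested. Replicate numbers are not stated to mark a shared batch, and same-numbered libraries did not deviate together in any comparison (correlations -0.048 to 0.062). With the replicate block, genes called in all went from 762 to 382 for H3K27me3 after knockdown and from 194 and 218 to 0 for H3K27me3 and H3K4me1 with GSK-J4, and of the member calls that of RBL1 was lost. With narrow peaks, and with those of −log10 q of at least 5, genes called were 109 and 180 for H3K27me3 after knockdown, and 23 and 2 for H3K4me1 with GSK-J4. Equal covered length gave 56 and the arcsine scale 327 for H3K27me3 with GSK-J4, and the arcsine scale 596 for H3K4me1.

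The difference of E2F1 in H3K4me1 became 1.47 and 2.39 points after knockdown and -0.95 and -0.97 points with GSK-J4 under these 2 kinds of narrow peak. That of E2F2 became 0.11 and 0.21 after knockdown, and 0.10 under narrow peaks and 0.71 without flanks with GSK-J4, and that of RB1 became -0.00998 after knockdown under narrow peaks. Members with groups apart were then, for H3K27me3 higher after knockdown, 0 without flanks, 0 with islands of at least 2 kb, and 2 and 0 with narrow peaks. For H3K27me3 higher with GSK-J4 they were 2 with narrow peaks. For H3K4me1 they were 0 and 0 lower after knockdown with narrow peaks. With GSK-J4 they were 2 higher without flanks and 0 higher with the stricter peaks, and 1 lower without flanks, with islands of at least 2 kb and with both kinds of peak. Without flanks, limma called 1 member lower in H3K4me1 after knockdown (E2F2) and 1 higher with GSK-J4 (E2F4).

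Leaving out each replicate in turn gave 362 to 411 genes called for H3K27me3 after knockdown (all 4 libraries moved it by over 1.5 times), 286 to 653 for H3K27me3 with GSK-J4 (moved so without DMSO replicate 2, GSKJ4 replicate 1 or GSKJ4 replicate 2), 3172 to 7293 for H3K4me1 after knockdown (3172 and 3214 without siKDM6B33 replicate 1 and 2, against 8532) and 107 to 208 for H3K4me1 with GSK-J4 (moved so without DMSO replicate 1, GSKJ4 replicate 1 or GSKJ4 replicate 2). Members called were 1 to 5 higher (1 without either siKDM6B33 library) and 0 to 1 lower for H3K4me1 after knockdown, the latter E2F2 without siCtrl replicate 2, and 0 to 1 higher for H3K27me3 with GSK-J4, which was E2F4 without GSKJ4 replicate 2. Members apart were 0 to 3 (gene windows) and 0 to 2 (start windows) for H3K27me3 higher with GSK-J4 (highest without GSKJ4 replicate 2), 1 to 2 for H3K4me1 lower after knockdown (2 without siKDM6B33 replicate 1), and 1 to 2 (gene windows, 2 without DMSO replicate 2) and 0 to 1 (start windows, 1 without GSKJ4 replicate 2) for H3K4me1 higher with GSK-J4. The difference of E2F1 ran from -4.59 to 16.1 points for H3K27me3 with GSK-J4 (below 0 without GSKJ4 replicate 1), from -14.5 to 10.3 for H3K4me1 after knockdown (above 0 without siCtrl replicate 1 or siKDM6B33 replicate 2) and from -2.59 to 11.8 for H3K4me1 with GSK-J4 (below 0 without DMSO replicate 1).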
